A study of Mus musculus with 20 samples.

Results

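Expression of 8 genes of the red cell lineage was followed in mouse liver: the beta globin genes Hbb-b1 and Hbb-b2, the alpha globin gene Hba-a1, the heme synthesis enzyme gene Alas2, the membrane genes Slc4a1 and Epb4.2, and the transcription factor genes Klf1 and Gata1. The members are the 9 non-control probes that the array files name for these 8 genes, of 55642 non-control probes with a usable spot on every array. All 9 are described, and 6 of them, 1 for each of 6 genes, were bright enough to be tested. The data are 1-colour Agilent arrays of liver RNA from 20 male mice, 4 in each of 5 inbred strains, with 1 array per mouse. The strains are NZO (NZO/HiBomDife), called obese and susceptible to diabetes in the series title, DBA (DBA/2J) and C3H (C3HeB/FeJ), called susceptible, and 129Ola (129P2/OlaHsd) and B6 (C57BL/6), called lean and resistant. All mice were fed the same high fat diet with 45% fat until week 6, and the protocol calls the mice 6 weeks of age. No group received another treatment, so strain is the only labelled difference. Mice are called here by strain and by the animal number of the labels.

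Adult mouse hemoglobin joins alpha chains with beta chains, and each chain holds heme. Its messenger RNA is made in erythroid precursors and persists in reticulocytes, so blood left in a piece of liver carries globin transcripts into the RNA. Gata1 and Klf1 are transcription factors that turn on globin, heme and membrane genes, Alas2 makes the first, rate-limiting step of heme synthesis in erythroid cells, and Slc4a1 (band 3) and Epb4.2 (protein 4.2) are proteins of the red cell membrane. Inbred mouse strains carry different beta globin haplotypes: C57BL/6 mice carry the "single" haplotype with the genes Hbb-bs and Hbb-bt, and DBA/2, C3H and 129Ola mice the "diffuse" haplotype with Hbb-b1 and Hbb-b2. No file of the series gives a haplotype, and none is stated here for NZO.

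The sequences of the 2 globin probes on which the comparison of haplotype and red cell signal turns are shown, 5′ to 3′ as the array files hold them. The letters are those on the array, and no part of either is singled out.

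Hbb-b2: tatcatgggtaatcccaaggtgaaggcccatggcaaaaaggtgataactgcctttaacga

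Hba-a1: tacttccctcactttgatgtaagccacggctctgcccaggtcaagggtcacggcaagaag

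The array annotation ties the Hbb-b2 probe to transcripts of both Hbb-b2 and Hbb-b1 and gives it no position on the mouse build mm9. It ties the Hba-a1 probe, at chr11:32183955-32184014 (mm9, plus strand), to both adult alpha genes, Hba-a1 and Hba-a2, so the 2 alpha genes cannot be told apart by it. The Hbb-b1 probe lies at chr7:110976379-110976438 (mm9, minus strand) and is annotated to Hbb-b1 and Hbb-bs. Its overlap with the bases just after the RefSeq start of Hbb-bs is 46 bases, all 46 identical, and with the start of Hbb-bt 45 bases, of which 38 are identical. The Hbb-b1 probe thus reads a sequence that the B6 haplotype also holds. No strain genome was at hand, so mismatches between a probe and a strain's transcript were not tested.

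The promoters of 3 globin genes and of Alas2 are shown as well, as the 150 bases before the RefSeq start site on the gene's strand (GRCm38.p6). They are a description, and a link between promoter sequence and the levels was not tested. Capitals mark the letters AGATAA or TGATAA, bound by GATA factors, and CACACCC or CACGCCC, bound by Klf1, searched on both strands in windows that run from 250 bases before to 50 after the start.

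Hba-a1, chr11:32283522-32283671, plus strand: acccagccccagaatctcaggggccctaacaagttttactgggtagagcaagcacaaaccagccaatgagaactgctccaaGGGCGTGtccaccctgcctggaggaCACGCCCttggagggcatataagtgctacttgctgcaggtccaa

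Hbb-bs, chr7:103827929-103828078, minus strand: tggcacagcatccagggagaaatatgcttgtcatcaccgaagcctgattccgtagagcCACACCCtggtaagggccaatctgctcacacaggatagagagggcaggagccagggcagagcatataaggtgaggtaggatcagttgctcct

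Hbb-bt, chr7:103813924-103814073, minus strand: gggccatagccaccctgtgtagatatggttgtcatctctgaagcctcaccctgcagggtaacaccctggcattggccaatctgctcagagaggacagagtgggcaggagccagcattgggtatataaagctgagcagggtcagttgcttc

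Alas2, chrX:150547267-150547416, plus strand: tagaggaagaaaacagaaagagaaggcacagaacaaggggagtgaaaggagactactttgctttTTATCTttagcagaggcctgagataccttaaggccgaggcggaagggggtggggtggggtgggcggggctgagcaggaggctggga

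Of 32544 mouse promoters, 11.16% hold AGATAA, 8.908% TGATAA, 7.98% CACACCC and 8.499% CACGCCC, so any one of these matches is common. The Hba-a1 promoter held CACGCCC on both strands and, further upstream than the bases shown, TGATAA. The Hbb-bs promoter held CACACCC and, further upstream, AGATAA, and the Hbb-bt promoter held none of the 4. The Alas2 promoter held AGATAA on the other strand, which reads TTATCT here. In the promoter of Klf1, CACACCC and TGATAA were found, in that of Gata1 CACACCC, and in that of Epb42 (the current name of Epb4.2) AGATAA. Slc4a1, Hbb-b1 and Hbb-b2 are not shown. Neither the GATA nor the Klf1 letters were tested for binding.

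A level is the log2 processed signal of a probe minus the 75th percentile of its array, so 0 is the 75th percentile of all probes. Levels of 1 probe are compared between mice, and levels of different probes are not set against each other, because probes differ in how brightly they bind. Tests covered the 28417 probes that cleared the scanner's background limit in every mouse of 1 or more strains. Differences come from a limma fit with a mean per strain over all 20 arrays, and an adjusted p is limma's moderated two-sided p after Benjamini-Hochberg adjustment over all tested probes, with a threshold of 0.05. Per array, 40.0% to 43.3% of probes were well above background in 129Ola and 43.2% to 59.0% in the other strains. The 14 hepatocyte genes measured, such as Alb and Apoa1, were above background on all 20 arrays, as the liver label requires. The array files were made with scanner software version 11.0.1.1 for NZO, DBA and B6 and 11.5.1.1 for C3H and 129Ola, so for C3H against B6 and 129Ola against B6 the strain and the version cannot be told apart. All C3H arrays sat on 1 slide and were scanned on 1 day, and all 129Ola arrays were scanned on another day, so for this pair strain and scan day cannot be told apart either. Of the DBA mice, DBA 9 was scanned on the first day and DBA 5 on the second, each with NZO and B6 mice, and DBA 8 and 15 on a day with no other strain, so each value within a scan day that involves DBA rests on 1 DBA mouse.

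The alpha globin signal was high in C3H and NZO livers and lower in the other 3 strains. The Hba-a1 probe read 7.99, 8.27, 8.78 and 7.83 in NZO 3, 7, 9 and 11. In DBA 5, 9, 8 and 15 it read 8.43, 6.58, 6.11 and 7.09, and in C3H 1, 2, 3 and 5 it read 8.42, 8.55, 8.37 and 9.04. These are all levels of the same probe, and DBA 5 stood within the range of the C3H mice while the other DBA mice were lower than every NZO and C3H mouse. In 129Ola 4, 5, 7 and 9 the levels were 7.35, 7.08, 6.77 and 6.96, and in B6 9, 10, 11 and 15 they were 7.36, 6.99, 7.46 and 6.99. The C3H and NZO mice did not overlap with the 129Ola and B6 mice. C3H exceeded B6 by 1.40 ± 0.35 (SE) on the log2 scale, a 2.63-fold difference (adjusted p = 0.00553), and exceeded 129Ola by 1.56 ± 0.35 (adjusted p = 0.00288). With slide as a random block the difference of C3H from B6 was 1.35 and did not pass (adjusted p = 0.0634). NZO exceeded 129Ola by 1.18 ± 0.35 (adjusted p = 0.0104), but its difference of 1.02 ± 0.35 from B6 did not pass (adjusted p = 0.0557). In the order of the means C3H, NZO, B6, DBA and 129Ola, no 2 neighbours passed the test, with adjusted p between 0.0557 and 0.986. In bulk liver RNA, fewer red cells and less globin RNA per red cell cannot be told apart.

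NZO exceeded DBA in Hba-a1 by 1.17 ± 0.35 (adjusted p = 0.029), and this value rested on single mice. Without DBA 5 the difference was 1.63 (adjusted p = 1.7e-04), and without any 1 of NZO 7, NZO 9, DBA 9, DBA 8 or DBA 15 it no longer passed, with adjusted p up to 0.112 and a difference down to 0.86. Between mice scanned on the same day it was 1.63 on the first day (3 NZO and 1 DBA) and -0.16 on the second (1 of each). With scan day as a block it was 0.87 (adjusted p = 0.248). The difference between NZO and B6 passed without DBA 5 or without DBA 8, whose spread enters the shared error (adjusted p down to 0.00481), with scan day as a block (1.18, adjusted p = 0.0452), and when only the arrays of these 2 strains (adjusted p = 0.0188) or only probes above background on all 20 arrays were fitted (adjusted p = 0.0428).

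**Figure D1:**
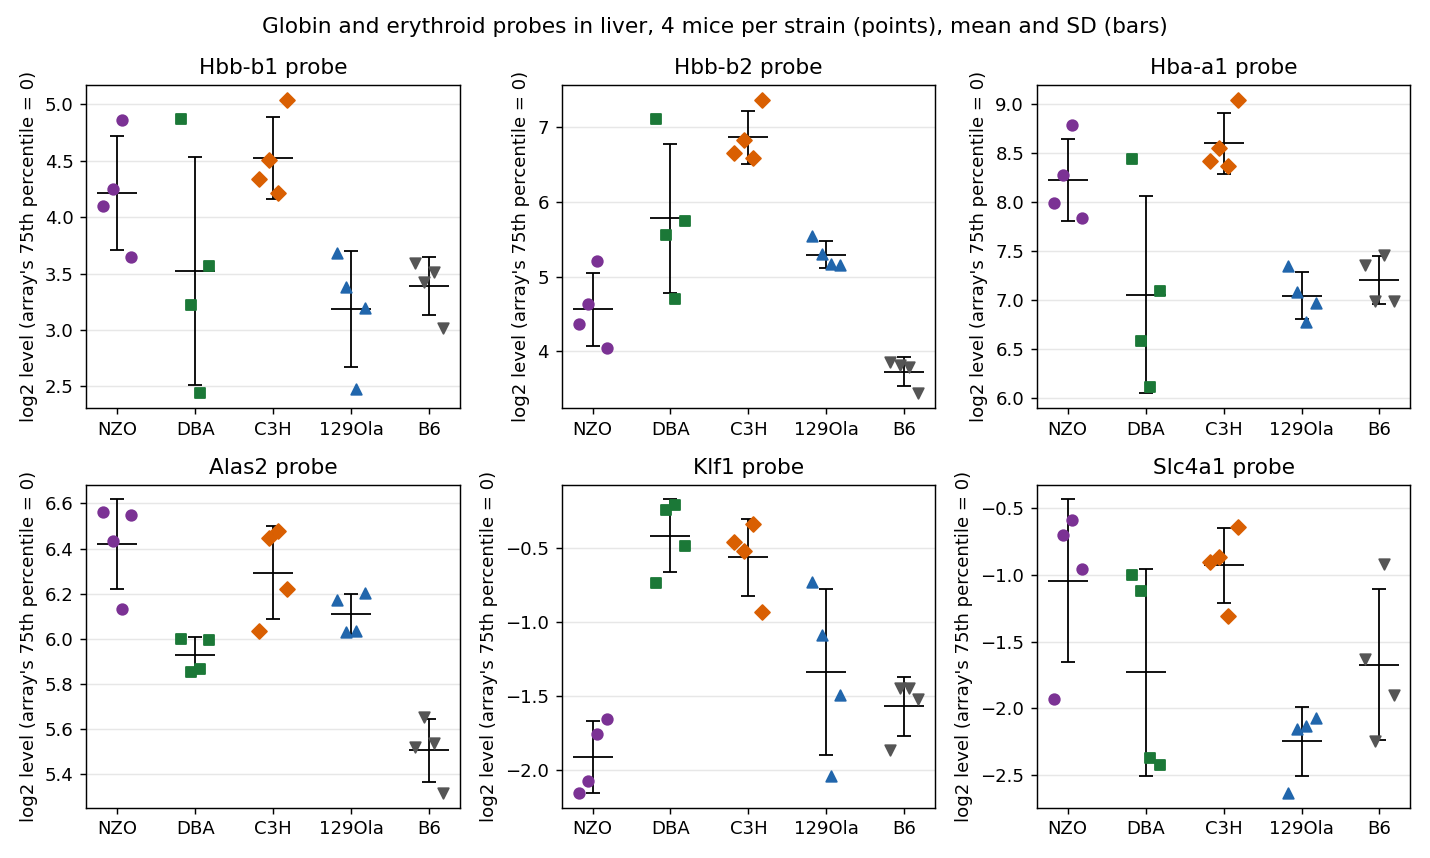
Level of each tested member probe (log2, with the 75th percentile of the array at 0) in each of 20 mice by strain, with points for mice and bars for the mean and SD of 4 mice. Hba-a1, Hbb-b1 and Slc4a1 are high in C3H and NZO, Hbb-b2 is high in C3H, DBA and 129Ola, Alas2 is lowest in B6, and Klf1 is high in DBA and C3H.

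The Hbb-b1 probe, like Hba-a1, had its highest strain means in C3H and NZO. Its levels were 4.1, 4.25, 4.86 and 3.65 in NZO, 4.87, 3.22, 2.44 and 3.57 in DBA, and 4.34, 4.51, 4.22 and 5.04 in C3H, with mice in the order given for Hba-a1. In 129Ola they were 3.68, 3.38, 2.48 and 3.19, and in B6 3.60, 3.42, 3.52 and 3.02. All NZO and C3H mice were above all B6 mice, and DBA spanned nearly the whole range of the other strains. C3H exceeded B6 by 1.14 ± 0.39 (adjusted p = 0.0323) and 129Ola by 1.34 ± 0.39 (adjusted p = 0.0142), whereas NZO (0.82 ± 0.39, adjusted p = 0.173) and DBA (0.14 ± 0.39, adjusted p = 0.889) did not pass against B6. The call of C3H against B6 was lost without any 1 of C3H 2, C3H 5, B6 10 or B6 15, with adjusted p up to 0.0966, and under quantile normalization, scaling on the probes above background on all arrays and the authors' deposited values (adjusted p between 0.062 and 0.0643). With slide as a random block neither C3H against B6 (adjusted p = 0.167) nor C3H against 129Ola (adjusted p = 0.102) passed. Without DBA 5, NZO exceeded DBA by 1.14 (adjusted p = 0.0215), against 0.69 ± 0.39 (adjusted p = 0.274) with all mice.

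The Hbb-b2 probe gave a different order of strains. It read 4.37, 4.63, 5.20 and 4.04 in NZO, 7.11, 5.56, 4.70 and 5.75 in DBA, and 6.66, 6.83, 6.59 and 7.37 in C3H. In 129Ola it read 5.54, 5.31, 5.17 and 5.15, and in B6 3.85, 3.82, 3.79 and 3.44. Every mouse of the other 4 strains was above every B6 mouse, and the C3H mice did not overlap with NZO, 129Ola or B6. Hbb-b2 was 8.79-fold higher in C3H than in B6 (log2 difference 3.14 ± 0.36, adjusted p = 3.8e-06), 4.15-fold higher in DBA (2.05 ± 0.36, adjusted p = 4.5e-04) and 2.96-fold higher in 129Ola (1.57 ± 0.36, adjusted p = 0.00166). In NZO the difference from B6 was 0.84 ± 0.36 and did not pass (adjusted p = 0.125), although it did without DBA 5 (adjusted p = 0.0274). C3H exceeded DBA by 1.08 ± 0.36 (adjusted p = 0.0275), and the following neighbours in the order, DBA, 129Ola, NZO and B6, did not pass against each other (adjusted p between 0.0981 and 0.278). NZO was below DBA by 1.22 (log2 difference -1.22 ± 0.36, adjusted p = 0.0248), the opposite sign to Hba-a1 in the same pair. It did not pass without any 1 of NZO 3, NZO 11 or DBA 5 (adjusted p up to 0.0775), and without DBA 5 it was -0.77 (adjusted p = 0.0604). Nor did it pass with no filter on dim probes (adjusted p = 0.0502) or when only the arrays of these 2 strains were fitted (adjusted p = 0.163). Within scan days the difference between NZO and DBA was -1.02 and -2.48, and that between DBA and B6 was 1.93 and 3.29.

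**Figure D2:**
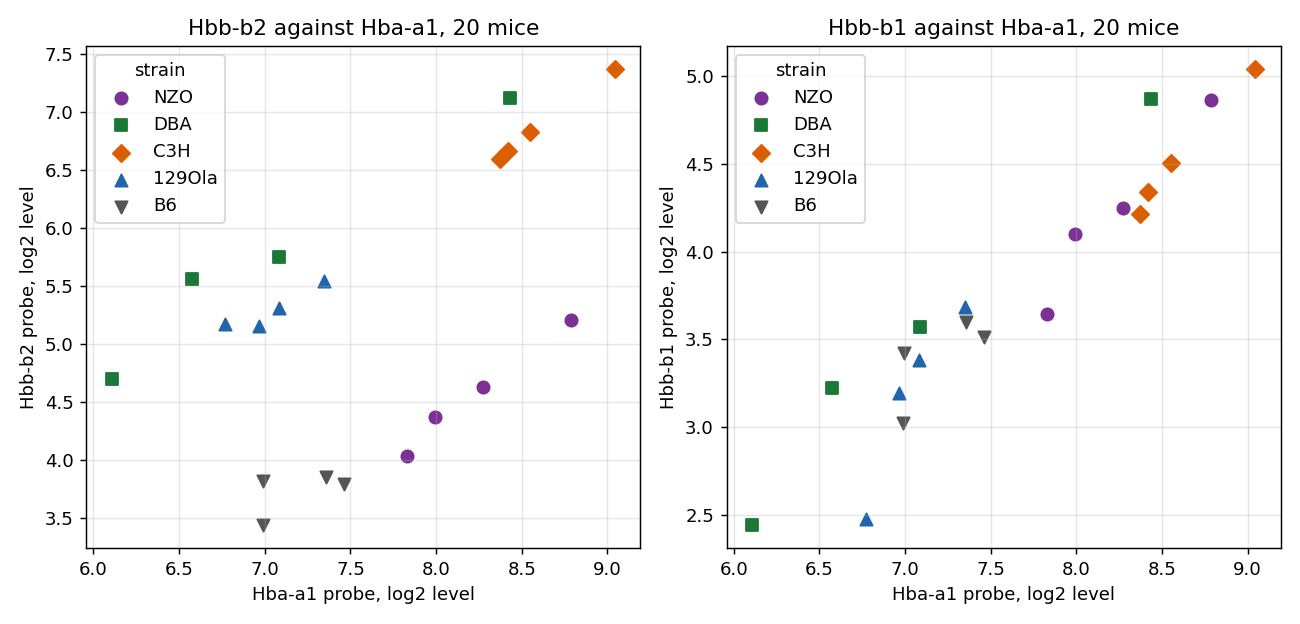
Hbb-b2 level (left) and Hbb-b1 level (right) against Hba-a1 level in the same liver, log2 scale, 1 point per mouse and 1 symbol per strain. In the left panel the DBA, C3H and 129Ola mice lie on an upper band and the NZO and B6 mice on a lower one, whereas in the right panel the 5 strains lie along 1 band.

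To separate the amount of globin RNA from a difference in how a probe reads a strain, the Hba-a1 level of the same array was subtracted. Hbb-b2 minus Hba-a1 was -3.62, -3.64, -3.58 and -3.79 in NZO, -1.32, -1.02, -1.41 and -1.34 in DBA, and -1.76, -1.72, -1.78 and -1.68 in C3H. It was -1.81, -1.78, -1.60 and -1.81 in 129Ola and -3.50, -3.17, -3.67 and -3.55 in B6. The strains fell into 2 sets that did not overlap: -1.27 ± 0.17 in DBA, -1.73 ± 0.05 in C3H and -1.749 ± 0.10 in 129Ola stood apart from -3.66 ± 0.09 in NZO and -3.47 ± 0.21 in B6 (SD, n = 4 each). The sign of a single value has no meaning, since the probes differ in brightness, and only its change between strains is read. Pairs of strains were also compared by an exact permutation of their mice, whose smallest possible p is 0.0286. Every pair across the 2 sets reached it, as did DBA against C3H and against 129Ola. After Benjamini-Hochberg adjustment over 40 such tests none of these pairs passed (adjusted p = 0.0635).

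The same difference for Hbb-b1 varied less, with means of -4.01 ± 0.13 in NZO, -3.53 ± 0.13 in DBA, -4.07 ± 0.06 in C3H, -3.86 ± 0.29 in 129Ola and -3.81 ± 0.19 in B6. For Hbb-bt, the minor beta gene of the single haplotype and not one of the 8 genes, the means lay between -1.30 in C3H and -1.04 in DBA. For Hba-a2, the other adult alpha gene, they lay between 1.751 in C3H and 2.25 in B6. Over the strain means these 3 probes spanned less than Hbb-b2 did. Probes of near-identical globin genes can bind each other's transcripts, so none of these values is assigned to 1 gene.

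**Figure D3:**
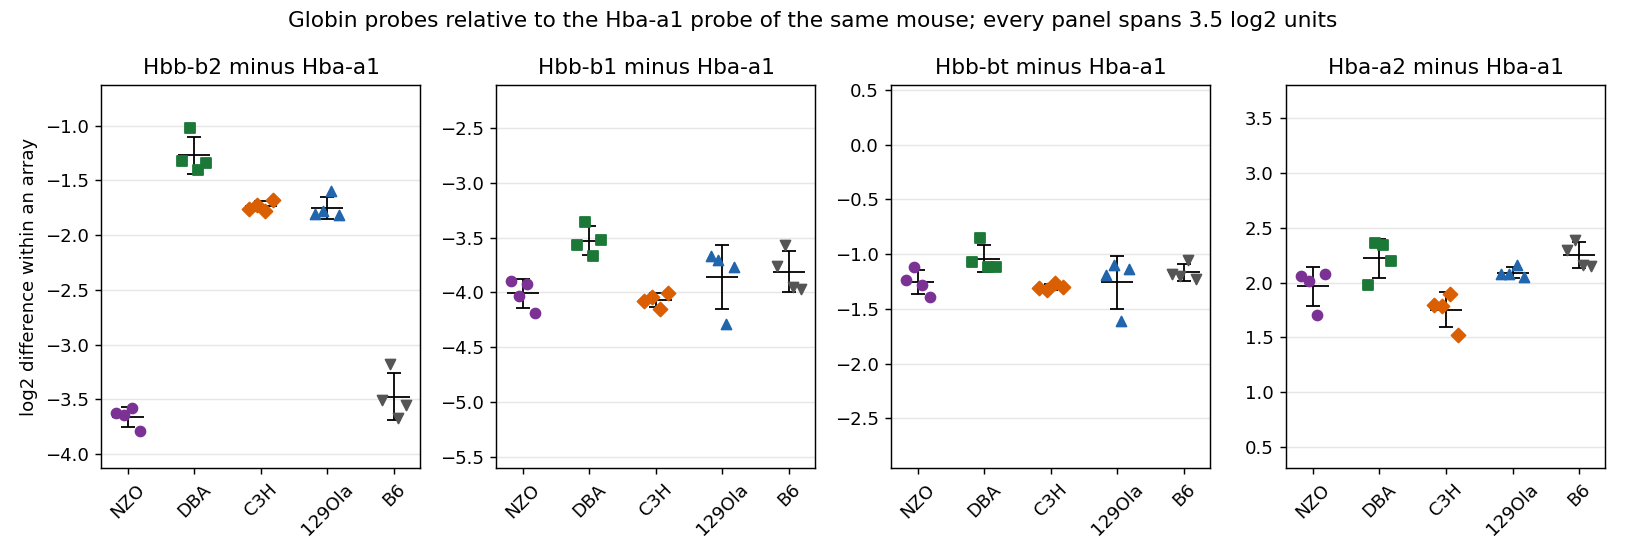
Level of 4 globin probes minus the Hba-a1 level of the same array (log2) by strain, with points for mice and bars for the mean and SD of 4 mice, all panels with the same span. Hbb-b2 lies between -1.81 and -1.02 in DBA, C3H and 129Ola and between -3.79 and -3.17 in NZO and B6, and the other 3 probes show no such gap.

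The step was tested in a second limma fit with the Hba-a1 level of each array as a covariate, over 28416 probes. At equal Hba-a1 level, Hbb-b2 was higher in DBA than in B6 (log2 difference 2.20 ± 0.11, adjusted p = 2.5e-10), 3.41-fold higher in C3H (1.77 ± 0.15, adjusted p = 4.9e-07) and 3.30-fold higher in 129Ola (1.72 ± 0.11, adjusted p = 5.1e-09). In NZO the difference from B6 was -0.16 ± 0.13 (adjusted p = 0.458), and between C3H and 129Ola it was 0.05 ± 0.16 (adjusted p = 0.891). The Hba-a1 levels do not overlap in either of these pairs, nor between NZO and 129Ola. For such pairs the value at equal level rests on the slope shared by all strains. The background at equal Hba-a1 level was 14.8% of probes called for DBA against B6, 25.1% for C3H, 48.6% for 129Ola and 13.4% for NZO. It was 11.6% for C3H against 129Ola, 11.1% for NZO against DBA, 35.6% for NZO against C3H, 34.3% for NZO against 129Ola, 20.6% for C3H against DBA and 48.6% for DBA against 129Ola. NZO was lower than DBA by 2.36, C3H by 1.93 and 129Ola by 1.89 (log2 differences -2.36 ± 0.14, -1.93 ± 0.11 and -1.89 ± 0.14, all with adjusted p of 6.8e-08 or less). Within the upper set, DBA exceeded 129Ola by 0.48 ± 0.11 (adjusted p = 0.00178) and C3H minus DBA was -0.43 ± 0.16 (adjusted p = 0.0652). When only the arrays of C3H and B6 were fitted, whose Hba-a1 levels do not overlap, the difference was 1.93 with adjusted p = 0.0749. With the mean of Alas2 and Slc4a1 as the covariate in place of Hba-a1, no call of the Hbb probes against B6 or of C3H against 129Ola changed. Values that had not passed changed sign in Hbb-b1 and, for NZO against B6, in Hbb-b2. Within strains Alas2 did not follow Hba-a1 (r = -0.025) and Slc4a1 did so loosely (r = 0.508). That fit thus cannot show whether the step holds at an equal amount of globin RNA.

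For Hbb-b1 none of the 4 strains passed against B6 at equal Hba-a1 level, with differences between -0.35 ± 0.18 in C3H and 0.29 ± 0.13 in DBA (adjusted p between 0.168 and 0.84), though under normexp background correction DBA did (0.36, adjusted p = 0.0259). DBA stood slightly above the others: NZO minus DBA was -0.55 ± 0.17 (adjusted p = 0.0436), C3H minus DBA -0.64 ± 0.19 (adjusted p = 0.0271) and DBA minus 129Ola 0.33 ± 0.13 (adjusted p = 0.0476). For C3H against B6, Hbb-b1 was thus 1.14 ± 0.39 without the covariate and -0.35 ± 0.18 with it, and Hbb-b2 was 3.14 ± 0.36 without it and 1.77 ± 0.15 with it. For Slc4a1 in C3H against B6 the values were 0.74 ± 0.36 without the covariate and 0.03 ± 0.44 with it, and neither passed. The strains in the upper set of Hbb-b2 are those with the diffuse haplotype in the background given above, and B6, with the single haplotype, is in the lower set. With 1 strain of known single haplotype, haplotype and every other difference between B6 and the 3 strains cannot be told apart.

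**Figure D4:**
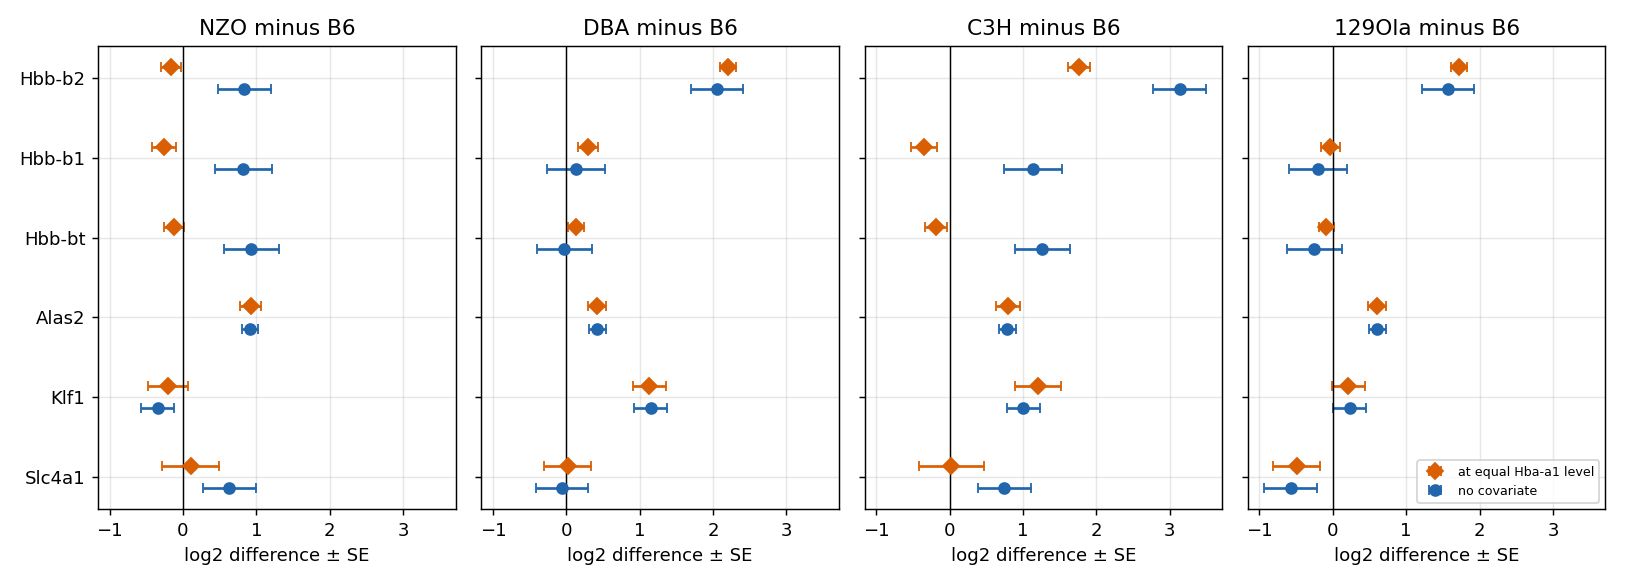
Log2 difference from B6 with its SE for 6 probes in NZO, DBA, C3H and 129Ola, from the fit with the Hba-a1 level as a covariate (diamonds) and from the fit without it (circles), 4 mice per strain. At equal Hba-a1 level Hbb-b2 stays 1.72 to 2.20 above B6 in DBA, C3H and 129Ola and lies at -0.16 in NZO, while Alas2 and Klf1 hardly move between the fits.

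Within strains, the globin probes moved together from mouse to mouse. Over the deviations of the 20 mice from their strain means, the correlation with Hba-a1 was r = 0.966 for Hbb-b2 (rho = 0.899, permutation p = 4e-05 for each, adjusted 7e-05) and r = 0.955 for Hbb-b1 (rho = 0.938, permutation p = 1e-05 for each, the smallest that 100000 permutations within strains can give). Without DBA 5 and DBA 8, the 2 mice farthest from the median, r was 0.904 for Hbb-b2 and 0.899 for Hbb-b1. A rise of 1 log2 unit in Hba-a1 went with 0.98 ± 0.07 in Hbb-b2 and 1.06 ± 0.09 in Hbb-b1. Slc4a1 had r = 0.508 and rho = 0.406 (permutation p = 0.123 and 0.161, adjusted 0.172 and 0.225), and r = 0.252 without the 2 mice. Alas2 had r = -0.025 and rho = -0.141 (permutation p = 0.903 and 0.569), and Klf1 r = -0.222 and rho = -0.242 (permutation p = 0.316 and 0.353). In all, 7 relations were computed, and within the arrays of 1 software version r was 0.967 and 0.961 for Hbb-b2 and 0.974 and 0.931 for Hbb-b1 (first NZO, DBA and B6, then C3H and 129Ola). In the same order r was 0.555 and 0.11 for Slc4a1, -0.026 and -0.032 for Alas2, and -0.557 and 0.224 for Klf1. The sign for Klf1 thus differed between the versions, and the values by version were not tested.

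**Figure D5:**
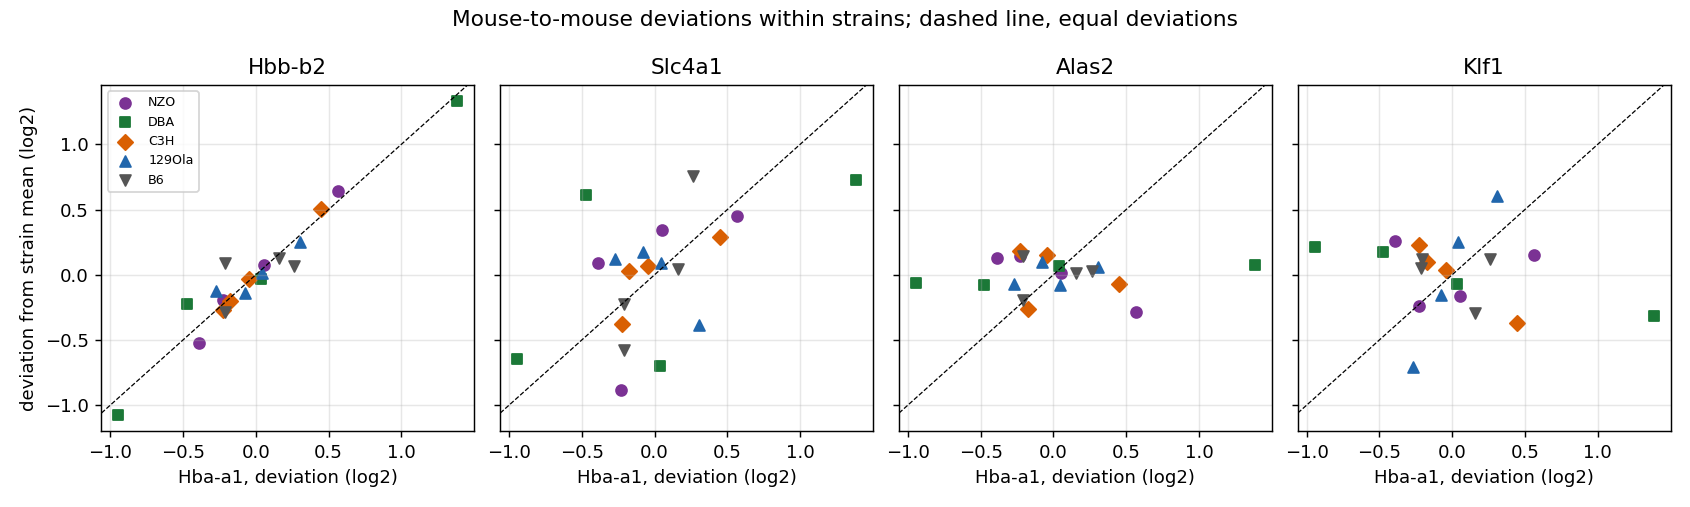
Deviation of 4 probes from their strain mean against that of Hba-a1 in the same mouse (log2), with 1 symbol per strain and a dashed line for equal deviations. Hbb-b2 lies along the line over 20 mice (r = 0.966), while Slc4a1 scatters (r = 0.508) and Alas2 and Klf1 do not follow the line (r = -0.025 and -0.222).

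Alas2, the erythroid enzyme of the first step of heme synthesis, was lowest in B6 and did not follow the globins. Its levels were 6.56, 6.43, 6.13 and 6.55 in NZO, 6.00, 5.85, 5.86 and 5.99 in DBA, and 6.03, 6.44, 6.48 and 6.22 in C3H. In 129Ola they were 6.17, 6.03, 6.04 and 6.20, and in B6 5.52, 5.65, 5.54 and 5.32. All 16 mice of the other strains were above all 4 B6 mice. Alas2 was higher than in B6 by 0.91 ± 0.11 in NZO (1.88-fold, adjusted p = 1.4e-05), 0.79 ± 0.11 in C3H (adjusted p = 5.3e-05), 0.60 ± 0.11 in 129Ola (adjusted p = 3.6e-04) and 0.42 ± 0.11 in DBA (adjusted p = 0.0169). At equal Hba-a1 level these differences were 0.92, 0.80, 0.60 and 0.42, and all 4 passed (adjusted p of 0.0222 or less). In the order NZO, C3H, 129Ola, DBA, B6 the only neighbours that passed were DBA and B6. NZO also exceeded DBA by 0.49 ± 0.11 (adjusted p = 0.0053), although with scan day as a block the value was 0.51 and did not pass (adjusted p = 0.0678). C3H minus 129Ola was 0.18 ± 0.11 (adjusted p = 0.223), and it passed at 0.32 to 0.37 under normexp, quantile normalization, scaling on the probes above background on all arrays and the authors' deposited values (adjusted p between 0.0154 and 0.0311). The Alas2 probe lies at chrX:147004993-147005052 (mm9, plus strand). Within the 2 scan days NZO exceeded B6 by 0.93 and 0.91. The DBA call was lost without B6 15 (0.36, adjusted p = 0.0659) with scan day as a block (0.42, adjusted p = 0.118) and in the authors' deposited values (0.31, adjusted p = 0.0524). The 129Ola difference was 0.24 to 0.29 with adjusted p between 0.0553 and 0.064 under normexp background correction, quantile normalization and the authors' deposited values, and 0.33 (adjusted p = 0.028) with scaling on the probes above background on all arrays.

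Klf1, the factor that activates the adult beta globin gene, was high in DBA and C3H. Its probe lies at chr8:87428881-87428940 (mm9, plus strand). Its levels were -2.16, -2.08, -1.76 and -1.66 in NZO, -0.74, -0.24, -0.21 and -0.49 in DBA, and -0.46, -0.52, -0.33 and -0.93 in C3H. In 129Ola they were -0.73, -1.09, -2.04 and -1.49, and in B6 -1.86, -1.45, -1.45 and -1.52. DBA and C3H overlapped with each other and not with NZO or B6, and 129Ola mice were spread between both. Klf1 was 2.22-fold higher in DBA than in B6 (log2 difference 1.15 ± 0.22, adjusted p = 0.00125) and 2.01-fold higher in C3H (1.01 ± 0.22, adjusted p = 0.0022). NZO was lower than DBA, with a log2 difference of -1.496 ± 0.224 (adjusted p = 8.7e-05), whereas its Hba-a1 level was the higher of the 2. Within scan days DBA exceeded B6 by 1.24 and 0.92 and NZO minus DBA was -1.62 and -1.34. In the order DBA, C3H, 129Ola, B6, NZO only C3H and 129Ola differed as neighbours (0.78 ± 0.22, adjusted p = 0.0132). That difference did not pass when only those arrays were fitted (adjusted p = 0.0609), with slide as a random block (adjusted p = 0.0693) or under normexp (0.18, adjusted p = 0.164). Under normexp the other Klf1 differences were smaller and still passed, at 0.59 for DBA against B6, 0.55 for C3H against B6 and -0.64 for NZO against DBA (adjusted p of 1.2e-04 or less), and 129Ola against B6 passed at 0.37 (adjusted p = 0.00215).

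Slc4a1, the anion exchanger of the red cell membrane, was above background on 19 of 20 arrays, with its probe at chr11:102210256-102210315 (mm9, minus strand). Its levels were -1.93, -0.70, -0.59 and -0.95 in NZO, -1.0, -1.12, -2.37 and -2.43 in DBA, and -0.90, -0.86, -1.31 and -0.64 in C3H. In 129Ola they were -2.64, -2.16, -2.13 and -2.07, and in B6 -1.63, -2.25, -0.92 and -1.90. The NZO and C3H mice did not overlap with 129Ola, and DBA split into a higher pair, DBA 5 and 9, and a lower pair, DBA 8 and 15. The lower pair shared a slide and a scan day with no other strain, and the higher pair was scanned on other days. For this split, mouse, slide and scan day cannot be told apart. C3H exceeded 129Ola by 1.32 ± 0.36 (adjusted p = 0.00921) and NZO exceeded 129Ola by 1.21 ± 0.36 (adjusted p = 0.00986), and none of the 4 strains passed against B6 (adjusted p between 0.117 and 0.952). Under normexp the difference of C3H from 129Ola was 0.32 (adjusted p = 0.12) and that of C3H from B6 0.48 (adjusted p = 0.0131). The difference of C3H from 129Ola did not pass with slide as a random block either (1.30, adjusted p = 0.058), and that of C3H from B6 passed without B6 11 (adjusted p = 0.0459).

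Epb4.2 and Gata1 gave no measured strain pattern. The Gata1 probe, at chrX:7536392-7536451 (mm9), was well above background on 0 of 20 arrays, with levels between -6.53 and -3.03. Of the Epb4.2 probes, the one at chr2:120849386-120849445 was well above background on 0 arrays, and the one at chr2:120844440-120844499 on 2, C3H 1 and C3H 3. Those read -1.10 and -0.58, against -5.23 and -4.75 in C3H 2 and C3H 5 and -6.51 to -4.54 in the other strains. C3H 1 and 3 lay in the second row of their slide and C3H 2 and 5 in the first, and Hba-a1 was slightly lower in C3H 1 and 3 (8.42 and 8.37) than in C3H 2 and 5 (8.55 and 9.04). The part of slide position was not tested.

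Counted over the 6 tested members, calls were read against the share of all 28417 probes called in the same comparison. In NZO against B6 1 of 6 was called, Alas2, which was higher, where 17.7% of all probes were called and 9.04% were higher. In DBA against B6 3 were called, Hbb-b2, Klf1 and Alas2, all higher, against 14.8% called and 6.89% higher. In C3H against B6 5 were called, all but Slc4a1 and all higher, against 35.2% called and 18.7% higher. In 129Ola against B6 2 were called, Hbb-b2 and Alas2, both higher, against 48.9% called and 29.7% higher. In C3H against 129Ola 5 were called, all but Alas2 and all higher, against 35.5% called and 14.4% higher. With slide as a random block 1 of these 5, Hba-a1, was called. In NZO against DBA 2 were higher, Hba-a1 and Alas2, and 2 lower, Hbb-b2 and Klf1, against 17% called, 9.15% higher and 7.84% lower. In the remaining pairs, NZO had 2 members lower than C3H (35.5% of probes called, 17.9% lower) and 4 higher and 1 lower than 129Ola (50.8% called, 20.4% higher, 30.4% lower). C3H had 3 higher than DBA (33.7% called, 18.5% higher), and DBA had 1 higher than 129Ola (47.7% called, 18.4% higher). The mice did not overlap in 4 of 6 members for NZO against B6, where this held for 21.9% of all probes, in 3 for DBA against B6 (19.7%), 5 for C3H against B6 (42.2%), 2 for 129Ola against B6 (44.6%), 4 for C3H against 129Ola (38.3%) and 2 for NZO against DBA (19.5%). The median log2 difference of the 6 members was 0.83 in NZO, 0.28 in DBA, 1.07 in C3H and 0.04 in 129Ola against B6, and 1.33 in C3H against 129Ola, while the median of all probes lay between -0.08 and 0.07 in these comparisons. The 4 comparisons with B6 share the B6 mice.

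All 6 members were higher in the susceptible than in the resistant class, taken as the mean of (NZO + DBA)/2 minus B6 and of C3H minus 129Ola, where 11.4% of all probes were higher and 28.2% were called. The differences were 1.51 ± 0.24 for Hbb-b2 (adjusted p = 1.4e-04), 1.00 ± 0.23 for Hba-a1 (adjusted p = 0.00427), 0.91 ± 0.26 for Hbb-b1 (adjusted p = 0.0148), 0.80 ± 0.24 for Slc4a1 (adjusted p = 0.0179), 0.59 ± 0.15 for Klf1 (adjusted p = 0.00672) and 0.43 ± 0.08 for Alas2 (adjusted p = 4.5e-04). With slide as a random block 4 of 6 passed, without Hbb-b1 (adjusted p = 0.0706) and Slc4a1 (adjusted p = 0.0867), and under normexp 5 passed, with Slc4a1 at 0.24 (adjusted p = 0.0874) and Klf1 at 0.22 (adjusted p = 0.0117). Some single pairs did not pass: DBA minus B6 was -0.15 ± 0.35 in Hba-a1 and -0.06 ± 0.36 in Slc4a1, and 0.30 (adjusted p = 0.735) and 0.61 (adjusted p = 0.343) with scan day as a block. NZO minus B6 was -0.34 ± 0.22 in Klf1 (adjusted p = 0.338). At equal Hba-a1 level the class difference was -0.15 ± 0.13 in Hbb-b1 (adjusted p = 0.51) and 0.29 ± 0.30 in Slc4a1 (adjusted p = 0.61). It was 0.53 ± 0.10 in Hbb-b2 (adjusted p = 0.0025), 0.73 ± 0.22 in Klf1 (adjusted p = 0.036) and 0.43 ± 0.11 in Alas2 (adjusted p = 0.018). For Hbb-b2 the parts were 2.20 for DBA minus B6, -0.16 for NZO minus B6 and 0.05 for C3H minus 129Ola. DBA and B6 also differ in haplotype, so class and haplotype cannot be told apart in the Hbb-b2 value. The globin probes moved together from mouse to mouse, so the 6 members are not 6 separate results. The error is that between mice within strains, and the class holds 3 and 2 strains. An F test of any difference among the 5 strains called all 6 members (adjusted p between 9.7e-06 and 0.0232), where 69.3% of all probes were called. With slide as a random block it called 4. Without the covariate, a test of whether the class difference was the same on both sides called 1 member, Alas2, where 29.4% of all probes were called. At equal Hba-a1 level it called Hbb-b2 (adjusted p = 5.79e-04) and not Alas2 (adjusted p = 0.0774).

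Probes of other globin genes were read for comparison. Hbb-bt belongs to the single haplotype in the background given above. In DBA, C3H and 129Ola the level of its probe is thus not assigned to Hbb-bt. The Hbb-bt probe averaged 6.96 ± 0.46 in NZO, 6.01 ± 0.99 in DBA, 7.30 ± 0.30 in C3H, 5.78 ± 0.44 in 129Ola and 6.03 ± 0.32 in B6 (SD, n = 4 each). It exceeded B6 in C3H by 1.26 ± 0.38 (adjusted p = 0.0149) and lay within 0.18 of B6 in all 4 strains at equal Hba-a1 level. The embryonic alpha-like gene Hba-x was well above background on 0 arrays, and the embryonic beta-like genes Hbb-bh1 and Hbb-y on 8 and 11. Ahsp, which binds free alpha chains, was above background on 8 arrays.

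Among the genes most like Hba-a1 from mouse to mouse within strains, of 15187 genes above background on all arrays, were Hba-a2 (r = 0.979), Hbb-bt (0.97), Mkrn1 (0.814) and Ptbp2 (0.804), over 20 arrays. Over the 20 levels themselves, the genes most like Hbb-b1 began with the same Hbb-bt (0.981) and Hba-a2 (0.953). Those most like Hbb-b2 began with a non-coding interval probe on chromosome 14 (0.881), followed by Nol12 (0.867), Enho (0.858), Atp6v0e2 (0.856) and Stk38l (0.854), and held no globin. Atp6v0e2, a subunit of the proton pump, averaged -0.15 ± 0.18 in NZO, 2.56 ± 0.18 in DBA, 2.51 ± 0.09 in C3H, 1.17 ± 0.32 in 129Ola and -1.13 ± 0.12 in B6, the order DBA, C3H, 129Ola, NZO, B6. These correlations describe 5 strains and 20 mice and carry no test.

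The lists that follow are read against the 9.04% of all probes that were higher and 8.66% that were lower in NZO than in B6, 6.89% and 7.95% in DBA, 18.7% and 16.5% in C3H, and 29.7% and 19.2% in 129Ola. The rest of the heme pathway moved in both directions. Of 16 heme synthesis genes besides Alas2, 1 was higher and 2 lower in NZO than in B6, 3 higher and 1 lower in DBA, 5 higher and 1 lower in C3H and 8 higher and 3 lower in 129Ola, with list medians of -0.03, 0.08, 0.21 and 0.25. Alad, the second enzyme of the pathway, was higher than in B6 by 0.98 ± 0.10 in NZO, 1.62 ± 0.10 in DBA and 1.53 ± 0.10 in C3H (adjusted p of 1.4e-06 or less). In NZO the mitochondrial transporter gene Abcb10 fell by 0.95 on the log2 scale against B6 (log2 difference -0.95 ± 0.12, adjusted p = 8.8e-06), and in DBA Ppox fell by 0.89 (-0.89 ± 0.09, adjusted p = 6.8e-07). The liver itself makes heme, so these enzymes are not specific to red cells.

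Of 18 further genes of the red cell membrane and skeleton, 7 were bright enough to be tested. In DBA 3 of 7 were higher than in B6, led by Dmtn (2.02 ± 0.23, adjusted p = 4.9e-06), which binds actin in the membrane skeleton, and Gypc (1.30 ± 0.16, adjusted p = 9.9e-06), a glycophorin. In NZO 0 of 7 passed against B6, where limma called 17.7% of all probes. In C3H 2 were higher and 2 lower, with Icam4, a blood group protein, higher by 1.04 ± 0.20 (adjusted p = 5.97e-04) and Dmtn lower by 0.77 (log2 difference -0.77 ± 0.23, adjusted p = 0.0171). In 129Ola 2 of 7 were higher, Epb41 (0.75 ± 0.12, adjusted p = 7.9e-05) and Icam4 (0.65 ± 0.20, adjusted p = 0.0118). Dmtn thus had opposite signs in DBA and C3H.

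Among 13 tested erythroid transcription factor genes, 3 were higher in NZO than in B6, 3 higher and 1 lower in DBA, 4 higher in C3H, and 6 higher and 3 lower in 129Ola. E2f2, a cell cycle factor, was higher than in B6 in NZO (1.05 ± 0.27, adjusted p = 0.0101) and DBA (1.06 ± 0.27, adjusted p = 0.01). Nfe2, the erythroid and megakaryocytic leucine zipper factor, was higher in C3H than in B6 by 1.36 ± 0.45 (adjusted p = 0.0251), and it was above background on 0 of 4 129Ola arrays. Bcl11a, a repressor of embryonic globin genes, was lower than in B6 in DBA (-1.49 ± 0.43, adjusted p = 0.0227), where it was above background on 3 of 4 arrays, and it was above background on 0 of 4 129Ola arrays. Of 19 tested genes for erythroid receptors, iron uptake and late maturation, 4 were higher and 1 lower in NZO than in B6, 4 higher and 3 lower in DBA, 6 higher and 2 lower in C3H, and 8 higher and 4 lower in 129Ola. Hemgn, a nuclear protein of blood progenitors, was 1.17 ± 0.15 higher in DBA than in B6 (adjusted p = 1.9e-05), and Steap3, an iron reductase, was higher in 129Ola by 1.595 ± 0.076 (adjusted p = 5.2e-11).

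Markers of other blood cells were counted in the same comparisons. Of 10 tested platelet and megakaryocyte genes, 0 were higher and 2 lower in NZO than in B6, 0 and 2 in DBA, 0 and 6 in C3H, and 2 and 4 in 129Ola. The mean level of these 10 genes ran from -1.2 to -0.90 in NZO, -1.34 to -1.08 in DBA, -1.89 to -1.54 in C3H, -1.47 to -1.10 in 129Ola and -0.93 to -0.61 in B6. Gp1bb passed the filter only through B6, with 4 B6 arrays above background, 1 NZO array and 0 in the other strains. Ppbp and Treml1 were above background on 0 C3H arrays. A lower value than in B6 was thus favoured in advance for Gp1bb, which is part of these counts and means and is among the genes lower in DBA. Of 11 neutrophil genes, 3 were higher and 1 lower in NZO than in B6, 0 and 1 in DBA, 0 and 1 in C3H, and 1 and 2 in 129Ola. Of 10 lymphocyte genes, 0 were higher and 2 lower in NZO than in B6, 1 and 1 in DBA, 1 and 5 in C3H, and 0 and 5 in 129Ola. Cd3g and Ms4a1 passed the filter only through B6, where both were above background on 4 of 4 arrays. Cd3g was above background on 2 NZO, 2 DBA, 0 C3H and 0 129Ola arrays, and Ms4a1 on 3, 3, 0 and 1. Lower values than in B6 were thus favoured in advance for both, and Cd3g was the 1 gene lower in DBA. Of 4 tested genes of mast cells, basophils and eosinophils, 0 were higher in any strain than in B6, and 2 were lower in NZO, 0 in DBA, 2 in C3H and 2 in 129Ola.

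A list of 16 genes covered Kupffer cells, which take up old red cells, and red cell clearance, so it does not measure Kupffer cells alone. Of the 16, 1 was higher and 8 lower in NZO than in B6, 3 higher and 7 lower in DBA, 2 higher and 12 lower in C3H, and 2 higher and 5 lower in 129Ola. The mean level of the 16 ran from 2.48 to 2.65 in NZO, 2.55 to 2.65 in DBA, 2.05 to 2.80 in C3H, 2.59 to 2.85 in 129Ola and 2.84 to 3.32 in B6. Hmox1, which breaks down heme, was lower in DBA than in B6 (-1.34 ± 0.24, adjusted p = 5.7e-04), and Slc40a1, the iron exporter, was higher in 129Ola (1.53 ± 0.17, adjusted p = 1.7e-06). Of 15 genes of iron stores and hepcidin, 2 were higher and 1 lower in NZO than in B6, 1 and 3 in DBA, 3 and 4 in C3H, and 4 and 4 in 129Ola. Of 16 proliferation genes, 1 was higher and 0 lower in NZO than in B6, 1 and 7 in DBA, 1 and 6 in C3H, and 1 and 12 in 129Ola. Top2a, 1 of these genes, passed the filter only through B6, so a lower value than in B6 was favoured in advance for it. It was above background on 4 B6, 2 NZO, 1 DBA, 0 C3H and 0 129Ola arrays. Of 14 hepatocyte genes, 2, 1 and 3 were higher and 0 lower in NZO, DBA and C3H, and 2 were higher and 2 lower in 129Ola. The part of cell composition in the member values was not tested.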

How the data were processed

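Per the file headers, the deposited values are spot intensity values from Agilent's Feature Extraction software, in version 11.0.1.1 for NZO, DBA and B6 and 11.5.1.1 for C3H and 129Ola (the submitters' processing notes name 9.1, which the headers contradict), background-subtracted and detrended, with no normalization between arrays. The authors' series value table holds normalized intensity values and served as an alternative.

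Of 62976 spots per array, 3671 controls and 96 to 186 outlier spots were left out, none was saturated, and spots of a probe were averaged. The log2 signal minus the array's 75th percentile was fitted with limma 3.58.1 (R 4.3.3), with a mean per strain over 20 arrays, for 28417 probes, and again with the Hba-a1 level as a covariate. The fit was tested on simulated data. Every member probe is named. Of each gene list, genes were named from the 2 largest called differences, with the brightest probe for a gene, and some genes that this rule names are not reported here. Promoters and symbols are from RefSeq (GRCm38.p6), and probe positions are on mm9. Members, lists and tests were chosen with earlier results of these data known. Nothing beyond the animal number says that arrays are separate mice, and they are read so. The number of arrays limits the precision. Alternatives covered background correction, scaling, filters, slide, scan day, animal number and single arrays left out.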

Additional observations from a re-analysis of the deposited data

Results flagged for a closer look

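In all, 2 mice stood apart from the others of their strain in a tested member, of 30 strain and probe groups of 4 mice examined, and about 1 in 20 such groups is flagged by chance. Hbb-b2 in B6 15 was 3.44, against 3.79 to 3.85 in the other B6 mice. Slc4a1 in 129Ola 4 was -2.64, against -2.16 to -2.07 in the other 129Ola mice, and it was the 1 array on which this probe was not well above background.

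The difference between classes was not the same size on both sides for Alas2: (NZO + DBA)/2 minus B6 exceeded C3H minus 129Ola by 0.48 ± 0.15 (limma, adjusted p = 0.024), where 29.4% of all probes were called in this test. At equal Hba-a1 level it was 0.48 ± 0.18 (adjusted p = 0.0774). The size depended on the scaling: it was 0.21 under quantile normalization, 0.25 under normexp background correction, 0.25 with scaling on the probes above background on all arrays and 0.18 in the authors' deposited values, with no test under these. The 5 other tested members did not pass in the fit without the covariate, with adjusted p between 0.0814 and 0.87. At equal Hba-a1 level Hbb-b2 did pass (0.97 ± 0.17, limma, adjusted p = 5.79e-04). Hbb-b1, Klf1 and Slc4a1 did not pass there (adjusted p between 0.277 and 0.56). The share of all probes called in this test at equal level was not counted.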

How the results depend on the processing

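No value that passed changed sign under the alternatives run, but values that did not pass did. Under normexp, Slc4a1 in 129Ola against B6 was 0.16 (-0.58 before), and with scan day as a block DBA minus B6 was 0.30 in Hba-a1 and 0.61 in Slc4a1. With scaling on the probes above background on all arrays Klf1 in 129Ola against B6 was -0.041. At equal Hba-a1 level, under normexp, quantile normalization and the deposited values, Hbb-b1 in 129Ola against B6 was 0.072, 0.11 and 0.098 and Hbb-b2 in C3H against 129Ola was -0.058, -0.048 and -0.086. With only the strains compared the Hbb-b1 value was 0.013, and with the replicate block NZO minus B6 was 0.022. With Alas2 and Slc4a1 as the covariate, Hbb-b1 was 0.039 in NZO, -0.050 in DBA and 0.36 in C3H against B6 and 0.57 in C3H against 129Ola, and Hbb-b2 in NZO was 0.0077. Leaving out 1 mouse, DBA minus B6 was -0.31 to 0.497 in Hbb-b1, -0.61 to 0.16 in Hba-a1 and -0.30 to 0.196 in Slc4a1, and Hbb-b1 in 129Ola against B6 was -0.37 to 0.031. At equal Hba-a1 level the ranges were -0.098 to 0.10 for Hbb-b1 in 129Ola against B6 and -0.014 to 0.15 for Hbb-b2 in C3H against 129Ola. Of the 6 tested members, the number called in NZO against B6 was 1, and it was 2 with only probes above background on all 20 arrays, with scan day as a block and with only the strains compared. In NZO against DBA it was 4, and 2 with no filter on dim probes, with scan day as a block and with only the strains compared. In 129Ola against B6 it was 2, and 1 under quantile normalization and in the authors' deposited value table. With slide as a random block it was 3 in place of 5 for C3H against B6 and 1 in place of 5 for C3H against 129Ola, where quantile normalization, scaling on bright probes and the deposited values gave 6 and normexp 4. Leaving out 1 mouse at a time gave 1 to 3 for NZO against B6 (3 without DBA 5, 2 without DBA 8), 2 to 3 for DBA against B6, 4 to 6 for C3H against B6, 3 to 4 for NZO against DBA and no change for 129Ola against B6, C3H against 129Ola or the class. The animal numbers do not pair mice of different strains (r of same-numbered mice between -0.326 and 0.361), and with the replicate block the count was 1 for C3H against B6, 129Ola against B6 and NZO against DBA and 2 for C3H against 129Ola and the class. The 3 Hbb calls against B6 at equal Hba-a1 level were again 3 in the settings where they were counted, except 4 under normexp and 2 with only the strains compared. The causes of these changes were not tested. Scaling on the probes above background on all arrays moved the median of all probes by -0.273 for 129Ola against B6, 0.164 for C3H against 129Ola and -0.109 for C3H against B6. It moved the share of calls that were higher to 32.7% for 129Ola against B6 (60.7% before), 64% for C3H against 129Ola (40.7%), 38.1% for C3H against B6 (53%), 37.9% for NZO against B6 (51.1%) and 51.8% for the class (40.5%). Signal near background limits Slc4a1, Epb4.2 and Gata1, and Klf1, whose differences were smaller under normexp in DBA and C3H against B6.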
